A study of Ovis aries with 6 samples.

Results

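A total of 103 newly predicted miRNAs were well expressed in the fetal sheep rumen, and none of them passed an adjusted p of 0.05 between fetuses of underfed and normally fed ewes. They were chosen by measured level, as the entries whose IDs begin with novel_miR_ and whose mean over the 6 libraries was at least 20 RPM (reads per 1000000 assigned miRNA reads), leaving out 22 entries by number. Entries with an identical mature sequence were counted once, so that 115 passing entries gave 103 sequences out of 1253 listed entries, which hold 1029 distinct sequences. The list has 1101 newly predicted and 152 sheep-named (oar-) entries, and 964 newly predicted entries lay under the threshold. Newly predicted means here only that an entry has no sheep name in the list. The sequences were not compared with miRNAs of other species, so some may be known there under other names. The mean level chose these miRNAs, so their levels are given as a description. The numbers in the IDs are the study's own running numbers: novel_miR_410 is not miR-410, and novel_miR_192 is not miR-192.

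The libraries were made from small RNA of whole rumen, from male Hu sheep fetuses, 3 from ewes fed normally (CON) and 3 from ewes on restricted feed (UN), with 1 library per fetus. All 6 animals are labelled wild type and day 115 of gestation. In the study's methods that is the day on which restriction began and the fetuses were taken later, so the label may not be the sampling day. The labels name no other treatment or allele. The rumen is a mixed tissue of epithelium, connective tissue and smooth muscle, and no cells were sorted. Depth ran from 18584326 to 35555822 assigned reads per library, so that each of the 103 had between 253 and 296947 reads in every library.

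Mature miRNAs are short RNAs cut from hairpin precursors by Drosha and Dicer and loaded into Argonaute proteins, where they lower the output of messenger RNAs. Target choice rests largely on the seed, bases 2 to 8 from the 5′ end, and miRNAs that share a seed are grouped into families with overlapping targets. In a muscular, epithelium-lined stomach wall such as the rumen, miR-143 is known as a miRNA of smooth muscle and fibroblasts, and the miR-200 family as one of epithelium. Both kinds were present in every library, since oar-miR-143 held 29.5% to 50.03% of the reads and oar-miR-200a, oar-miR-200b and oar-miR-200c had means of 6786, 5934 and 1618 RPM. The marker oar-miR-150 of lymphocytes was low, at a mean of 4.37 RPM, oar-miR-133 of striated muscle had 234 RPM, and oar-miR-194, known from intestinal epithelium, had 128 RPM. None of these markers is specific to the rumen.

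The 12 most abundant of the 103 are shown first because they carry most of the reads of the set. Each mature sequence is as listed in the study's supplementary table, 5′ to 3′, with the seed in capitals.
novel_miR_395: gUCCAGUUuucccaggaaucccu
novel_miR_578: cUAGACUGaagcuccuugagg
novel_miR_484: uUCACAGUggcuaaguucugca
novel_miR_65: cCCAGUGUuuagacuaucuguuc
novel_miR_138: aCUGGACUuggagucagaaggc
novel_miR_410: cAUGCCUUgaguguaggaccgu
novel_miR_712: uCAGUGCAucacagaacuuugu
novel_miR_161: uCCCUGAGacccuuuaaccugug
novel_miR_261: uGGCUCAGuucagcaggaac
novel_miR_258: uACAGUACugugauaacugaag
novel_miR_755: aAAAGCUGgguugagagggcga
novel_miR_524: aUCACAUUgccagggauuaccacg
U, A, C and G all occur as first letters, and no seed occurs more than once among them.

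The levels fell steeply from the first sequences to the last. novel_miR_395 had 9061, 8679.9 and 8352 RPM in CON and 6834, 8367 and 8547 RPM in UN, which made it the most abundant of the 103 in all 6 libraries. The values for novel_miR_578 were 4444, 5405 and 4531 RPM in CON and 5869.9, 4296 and 4457 RPM in UN, and those for novel_miR_484 were 4448, 5167 and 4004 RPM in CON and 5347, 4506 and 4202 RPM in UN. These 2 miRNAs overlapped in every group, and they held ranks 2 to 3 and 2 to 4 over the libraries, so their order is not resolved by these fetuses. novel_miR_65 followed with 4256, 6038 and 2750.5 RPM in CON and 3598, 3516 and 3056 RPM in UN, ranging from rank 2 to rank 5. The widest swing of rank among the first 5 was that of novel_miR_138, from rank 4 to rank 13.

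From novel_miR_410 (mean 1912 RPM) to novel_miR_524 (mean 1228 RPM) the libraries of neighbouring miRNAs overlapped. Levels of at least 1000 RPM were reached by 15 of the 103, which together held 3.79% of the assigned reads. Another 45 lay between 100 and 1000 RPM and held 1.39%, and the remaining 43, between 20 and 100 RPM, held 0.186%. At the threshold, novel_miR_817, novel_miR_344 and novel_miR_373 lay just inside with means of 22.8, 21.1 and 20.4 RPM. Just outside were novel_miR_71, novel_miR_60 and novel_miR_779 with 18.6, 18.1 and 17.2 RPM.

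**Figure D1:**
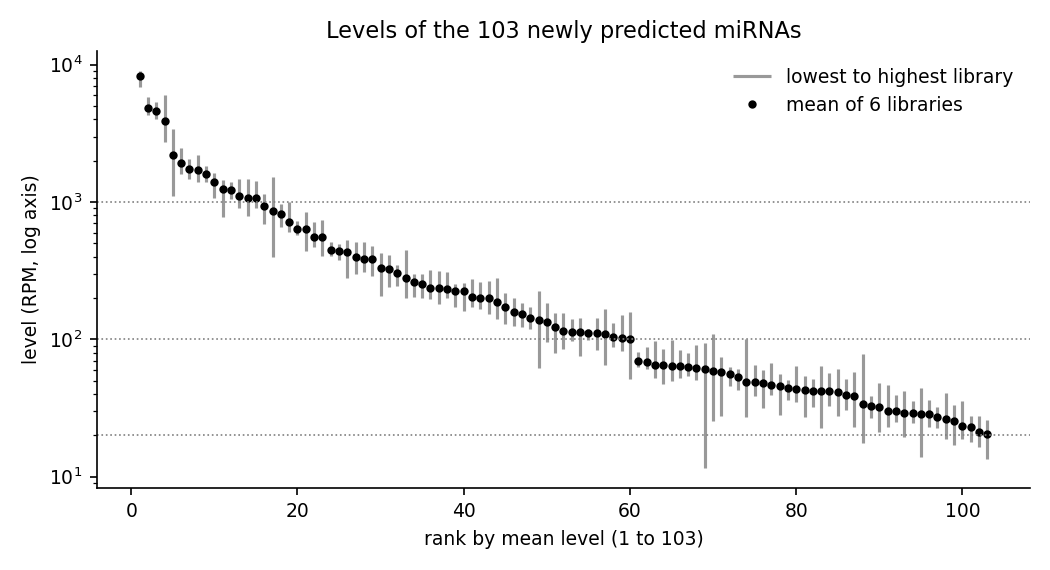
Mean level in RPM on a log axis against rank for the 103 miRNAs, with a grey line from the lowest to the highest library and dotted lines at 20, 100 and 1000 RPM. The long grey line near the middle of the lower ranks belongs to novel_miR_866, whose libraries span 11.6 to 93.6 RPM.

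Features that the level rule did not use were compared as shares, without a test. A U at the first base, which Argonaute proteins are known to favour, stood in 53.4% of the 103, against 41.1% of 151 distinct sheep-named sequences and 37.2% of 758 newly predicted sequences under the threshold. A length of 22 bases was found in 54.4%, 40.4% and 42.3% of these sets, and the 103 ranged from 20 to 25 bases. The sheep-named set had no level threshold, unlike the 103, and the part of level in these differences was not tested. Sequences that share a run of 12 or more bases with at least 5 other listed sequences were rare, with 3 of the 103 (2.91%) against 26.1% of those under the threshold. Without such sequences, the share with a first U under the threshold was 46.8%.

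The 103 sequences carried 93 distinct seeds. Of them, 13 had the seed of a sheep-named entry, and 78 shared a seed neither with a sheep-named entry nor with each other. Where a member has the seed of a named miRNA, both are printed below so that the shared part and the rest can be read together.
novel_miR_484: uUCACAGUggcuaaguucugca
oar-miR-27a: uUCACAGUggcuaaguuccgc
novel_miR_712: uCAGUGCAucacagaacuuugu
oar-miR-148a: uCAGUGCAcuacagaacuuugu
oar-miR-152: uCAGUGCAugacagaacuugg
novel_miR_161: uCCCUGAGacccuuuaaccugug
oar-miR-125b: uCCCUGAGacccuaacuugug
novel_miR_524: aUCACAUUgccagggauuaccacg
oar-miR-23a: aUCACAUUgccagggauuucca
oar-miR-23b: aUCACAUUgccagggauu
novel_miR_418: uAGCAGCAcguaaauauuggagu
novel_miR_442: cAGCAGCAauucauguuuuga
novel_miR_926: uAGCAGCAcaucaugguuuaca
oar-miR-16b: uAGCAGCAcguaaauauugg
novel_miR_378: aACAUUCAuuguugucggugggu
novel_miR_10: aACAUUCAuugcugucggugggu
oar-miR-181a: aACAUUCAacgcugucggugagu
novel_miR_845: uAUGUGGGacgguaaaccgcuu
oar-miR-299-3p: uAUGUGGGacgguaaaccacaa
novel_miR_863: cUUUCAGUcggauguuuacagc
oar-miR-30a-3p: cUUUCAGUcggauguuugcag
novel_miR_19: aGCUACAUcuggcuacugggucucu
oar-miR-221: aGCUACAUugucugcuggguuu
novel_miR_297: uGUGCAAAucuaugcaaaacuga
oar-miR-19b: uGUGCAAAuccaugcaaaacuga
Capitals again mark bases 2 to 8. The sequences of novel_miR_484 and oar-miR-27a agree over their first 18 bases, as do those of novel_miR_524 with oar-miR-23a and oar-miR-23b and those of novel_miR_845 with oar-miR-299-3p. Beyond the seed the likeness was uneven, since novel_miR_161 and oar-miR-125b share their first 13 bases and novel_miR_712 and oar-miR-152 their first 9. The whole of oar-miR-23b is contained in novel_miR_524 and the whole of oar-miR-16b in novel_miR_418, while novel_miR_297 differs from oar-miR-19b at 1 base and novel_miR_712 from oar-miR-148a at 2. Reads of such near copies may have been divided between entries in the counting, so the levels of these 4 miRNAs and their partners are uncertain. The same caution applies to the shares of the other pairs above that agree over their first 18 bases. It also applies to novel_miR_863 with oar-miR-30a-3p (first 17 bases) and to novel_miR_378 with novel_miR_10, which differ at 1 base. Among members shown further below, novel_miR_771 and novel_miR_251 agree over their first 20 bases, and the caution holds for them as well.

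The members held fewer reads than the sheep-named entries in most of these families. Shares are of the reads of the members and the sheep-named entries with the seed. Further listed entries with the same seed were not counted. The list holds 6 entries with the seed of oar-miR-16b, of which 3 members and oar-miR-16b were counted. miR-27a, known as a regulator of fat cell formation and lipid genes in mammals, shares its seed with novel_miR_484. novel_miR_484 held 14.3%, 15.6% and 13.7% in CON and 14.7%, 14.9% and 15.9% in UN of the reads of the pair. The share moved by little between fetuses although the level of oar-miR-27a itself ran from 22153 to 31078 RPM. The miR-148 and miR-152 family is known for DNMT1, a DNA methyltransferase, among its targets. The share of novel_miR_712 in it was 1.84%, 1.53% and 2.26% in CON and 1.40%, 1.71% and 2.12% in UN. This was the smallest share of the 10 families, beside a mean of 94758 RPM for oar-miR-148a.

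miR-125b is the vertebrate relative of lin-4, a timing regulator of the worm Caenorhabditis elegans. Of its seed family, novel_miR_161 held 27.9%, 31.2% and 30.3% in CON and 28.4%, 30.3% and 33.2% in UN. miR-23a and miR-23b come from clusters that also encode miR-27 and miR-24 in mammals. novel_miR_524 held 31.2%, 30.5% and 30.8% in CON and 30.1%, 29.5% and 31.2% in UN of the reads of the 3 entries with their seed, the narrowest range among families with shares above 25%. The miR-16 family is known to restrain the cell cycle through cyclins. Its 3 members here, novel_miR_418, novel_miR_442 and novel_miR_926, together held 20.8%, 21.4% and 19.5% in CON and 21.3%, 22.7% and 19.7% in UN, at mean levels of 437, 224 and 53.5 RPM against 2707 RPM for oar-miR-16b.

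The miR-181 family is known for its part in lymphocyte development. novel_miR_378 and novel_miR_10 carry its seed, differ from each other at 1 base, and were almost equally abundant. novel_miR_378 had 113, 143 and 75.2 RPM in CON and 129.9, 116 and 102 RPM in UN, and novel_miR_10 had 103, 142 and 84.3 RPM in CON and 133, 109 and 99.4 RPM in UN. novel_miR_378 was the higher in CON replicate 1 and novel_miR_10 in CON replicate 3. Together they held 22.6%, 22.7% and 21.1% in CON and 21.7%, 20.7% and 22.3% in UN of their family. miR-19b belongs to the miR-17-92 cluster, known for promoting cell growth, and novel_miR_297 held 19.8%, 21.8% and 22.3% in CON and 20.5%, 20.8% and 21.3% in UN. miR-221 is known to lower the cell cycle inhibitor p27, and novel_miR_19 held 34.2%, 37.2% and 34.4% in CON and 33.8%, 32.7% and 36.6% in UN. For oar-miR-30a-3p, from the strand opposite miR-30a-5p, novel_miR_863 held 22.0%, 22.2% and 22.2% in CON and 17.2%, 22.8% and 24.1% in UN, with UN replicate 1 below the other 5 libraries.

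In one family the newly predicted member was more abundant than the sheep-named entry. miR-299 comes from the large imprinted miRNA cluster next to DLK1 and MEG3. novel_miR_845 had 181, 201 and 126 RPM in CON and 176, 137 and 126 RPM in UN. It held 87.6%, 86.3% and 84.9% in CON and 83.7%, 84.0% and 86.1% in UN of the reads of the pair with oar-miR-299-3p. It thus stood above oar-miR-299-3p in each library by several fold, while in the other 9 families the sheep-named entries held more reads than the members.

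**Figure D2:**
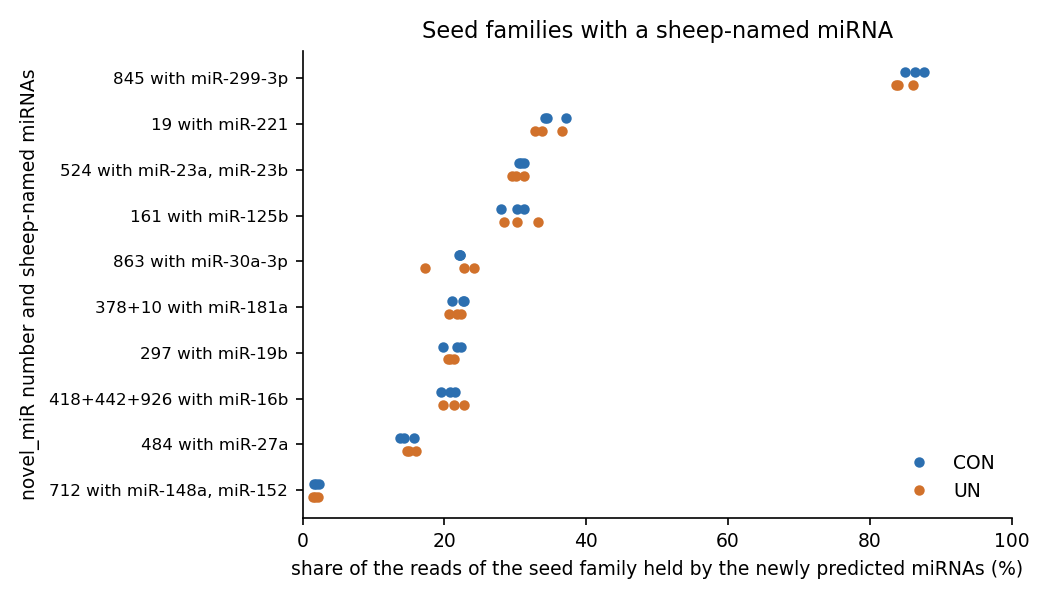
Share of the reads of each of 10 seed families held by the newly predicted members, in percent, with 1 point per library in CON and UN. Only members and sheep-named entries were counted. The points of the pair with miR-299-3p lie between 83.7% and 87.6%, and those of the pair with miR-148a and miR-152 between 1.40% and 2.26%.

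A further 12 members fell into 5 groups that share a seed with other members but with no sheep-named entry. Their sequences are shown by group, with bases 2 to 8 in capitals, since these seeds join miRNAs that have no sheep-named entry of the same seed in the list.
novel_miR_499: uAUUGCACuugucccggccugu
novel_miR_892: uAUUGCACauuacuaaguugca
novel_miR_1015: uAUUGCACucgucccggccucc
novel_miR_515: aAUUGCACgguauccaucugcg
novel_miR_462: cUUGGCACcuaguaaguacuca
novel_miR_985: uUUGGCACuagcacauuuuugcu
novel_miR_412: cAGUGCAAuguuaaaagggc
novel_miR_613: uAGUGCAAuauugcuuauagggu
novel_miR_1100: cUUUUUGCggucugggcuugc
novel_miR_239: uUUUUUGCuggaacauuucugg
novel_miR_771: uGAGAACUgaauuccauaggcug
novel_miR_251: uGAGAACUgaauuccauagguu
The 7 letters of the first group also open oar-miR-25, 1 base earlier, as marked in capitals here.
oar-miR-25: AUUGCACuugucucggucuga
miR-25 is known from the MCM7 gene, whose product licenses DNA replication. Over 12 bases novel_miR_499 and oar-miR-25 are identical, from base 2 of the first and base 1 of the second.

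novel_miR_499 dominated its group of 4. It had 1009, 1419 and 903 RPM in CON and 941, 1023 and 1105 RPM in UN, and held 81.1%, 81.5% and 80.9% in CON and 73.4%, 82.0% and 84.0% in UN of the reads of the group. The lowest share was that of UN replicate 1, where novel_miR_892 reached 278 RPM against 141 to 229 RPM in the other libraries. novel_miR_462 and novel_miR_412 held 74.6% to 83.2% and 75.5% to 80.6% of their pairs. The pairs led by novel_miR_1100 and novel_miR_771 were the least even over the libraries. novel_miR_1100 held 77.0%, 78.2% and 52.3% in CON and 61.2%, 68.4% and 68.3% in UN of its pair. novel_miR_771 held 70.4%, 64.1% and 52.2% in CON and 61.1%, 65.5% and 67.2% in UN of its pair, although it shares its first 20 bases with novel_miR_251. CON replicate 3 gave the lowest share in both.

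Over the 15 families and groups, the share was compared between UN and CON by a two-sided exact permutation test over the 6 libraries, whose smallest possible p is 0.10. The smallest p was 0.20, for novel_miR_845, and adjusted p over the 15 was 1.00. UN and CON overlapped in all 15. The 95% exact (Clopper-Pearson) intervals of single shares were 0.0303 to 5.96 percentage points wide, the widest in the pair led by novel_miR_771, and cover counting error only. The shares are ratios within a library and do not depend on how the library was scaled.

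Some members were near other listed sequences in ways that bear on their counts. Of the 103, 10 had 1 or 2 further entries with the identical sequence. The counts of such entries were equal in every library for novel_miR_261, novel_miR_256 and novel_miR_762, and differed most for novel_miR_499, whose second entry had 75.8% of its mean. Reads of these sequences may therefore stand in the list more than once, which would also enlarge the total that RPM is taken over. A run of 15 or more bases complementary to another entry was found in 3 members, shown with a partner and the complementary run in capitals.
novel_miR_609: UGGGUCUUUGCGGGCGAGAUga
novel_miR_109: AUCUCGCCCGCAAAGACCCAgc
novel_miR_845: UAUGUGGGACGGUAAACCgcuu
oar-miR-299-5p: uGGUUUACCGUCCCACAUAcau
novel_miR_965: ugAAAAGUUCGUUCGGGUUUuu
novel_miR_1123: AAACCCGAACGAACUUUUgggc
The complementary run was 20 bases for novel_miR_609, 18 for novel_miR_845 and 18 for novel_miR_965. In each pair the member was the more abundant, with means of 48.4 against 0.183 RPM, 158 against 13.0 RPM and 252 against 0.459 RPM. oar-miR-299-5p is named as the other arm of the miR-299 hairpin.

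The 3 members with many partial copies in the list were novel_miR_965, novel_miR_334 and novel_miR_984, which share runs of at least 12 bases with 30, 39 and 39 other listed sequences. The last 15 bases of the latter pair are the same, as marked.
novel_miR_334: gaaacugGAACGAACUUUUUGG
novel_miR_984: aaaauccGAACGAACUUUUUGG
Despite that shared end, novel_miR_334 had 92.6, 131 and 88.7 RPM in CON and 118, 92.9 and 99.3 RPM in UN, and novel_miR_984 had 51.5, 55.8 and 54.3 RPM in CON and 48.5, 28.2 and 37.4 RPM in UN. The first overlapped between the groups, and the second was lower in every UN library than in every CON library. novel_miR_452 and novel_miR_655 share 8 bases in their middle, shown because both had their 2 highest levels in CON replicate 2 and UN replicate 1.
novel_miR_452: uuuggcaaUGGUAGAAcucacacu
novel_miR_655: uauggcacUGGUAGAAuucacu
novel_miR_452 had 793, 1462 and 790.0 RPM in CON and 1298, 1119 and 942 RPM in UN, and novel_miR_655 had 240.4, 411 and 241 RPM in CON and 385, 365 and 300.5 RPM in UN. In both, the other CON libraries lay below all 3 UN libraries. CON replicate 2 and UN replicate 1 were also the 2 highest libraries for members without that run, such as novel_miR_484 and novel_miR_261. Scaled to the reads other than oar-miR-143, novel_miR_655 was highest in UN replicate 2. The pair was picked for its values, so the shared run is not tied to the shared pattern.

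The spread between the 6 fetuses was less than 2-fold for most members. The ratio of the highest to the lowest library had a median of 1.68 over the 103, against 1.70 over the 90 sheep-named entries with means of at least 20 RPM. It was below 1.5 in 26 members and above 2 in 22 (21.4%, against 13.3% of the sheep-named entries). The steadiest was novel_miR_464, which had 110.2, 119.8 and 98.5 RPM in CON and 119, 118 and 107 RPM in UN, a ratio of 1.22. Its libraries overlapped between the groups. novel_miR_773 and novel_miR_824, with means of 448 and 637 RPM, had ratios of 1.26 and 1.26.

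A ratio above 3 was found for 9 members, of which 6 were highest in CON replicate 2. Scaled to the reads other than oar-miR-143, the median ratio of the 103 was 1.52 and 5 members exceeded 3. novel_miR_866 had 11.6, 82.7 and 47.6 RPM in CON and 93.6, 59.2 and 69.7 RPM in UN, a ratio of 8.08 that came from the low CON replicate 1. novel_miR_394 had 61.9, 204 and 71.8 RPM in CON and 223, 162 and 103 RPM in UN, with CON replicates 1 and 3 as its lowest libraries. The ID novel_miR_1131 had 24.6, 77.9 and 27.1 RPM in CON and 17.5, 24.7 and 29.9 RPM in UN, so that CON replicate 2 stood alone and the other 5 libraries lay between 17.5 and 29.9 RPM. These 3 had the largest standard deviations on the log2 scale, and their sequences are given for that reason with the seed in capitals.
novel_miR_866: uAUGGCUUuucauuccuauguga
novel_miR_394: gUGGACUUcccugguagcucagc
novel_miR_1131: gAGAGAUCagaggcgcagagu

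A common shape was seen in 4 of the other 6 such members, high in CON replicate 2 and low in CON replicate 3. novel_miR_878 had 805, 1528 and 400.2 RPM in CON and 663, 787 and 941 RPM in UN. The level of novel_miR_1100 was 57.3, 109 and 25.3 RPM in CON and 52.2, 54.9 and 53.1 RPM in UN. For novel_miR_711 it was 117, 159 and 51.7 RPM in CON and 82.1, 99.9 and 99.8 RPM in UN. Since these were picked by those extremes, all 3 UN libraries of each lay between them. novel_miR_762 had the same 2 extremes, 100.2 and 27.1 RPM, and a ratio of 3.70. These 4 were picked after their values were seen, and their seeds differ.

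One library stood apart from the rest over these miRNAs. CON replicate 2 was the highest library for 74 of the 103 (71.8%), and for 162 of the 221 listed entries with a mean of at least 20 RPM (73.3%). In that library oar-miR-143 held 29.5% of the reads, against 37.7% to 50.03% in the other 5. Scaled to the reads other than oar-miR-143, CON replicate 2 was the highest for 27 of the 103 and UN replicate 3 for 26. The median deviation of the 103 from their own mean in CON replicate 2 was 0.36 on the log2(RPM + 1) scale over all reads and 0.08 over reads other than oar-miR-143. The median coefficient of variation was 21.7% in CON and 14.7% in UN. Several results are therefore also given without CON replicate 2.

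**Figure D3:**
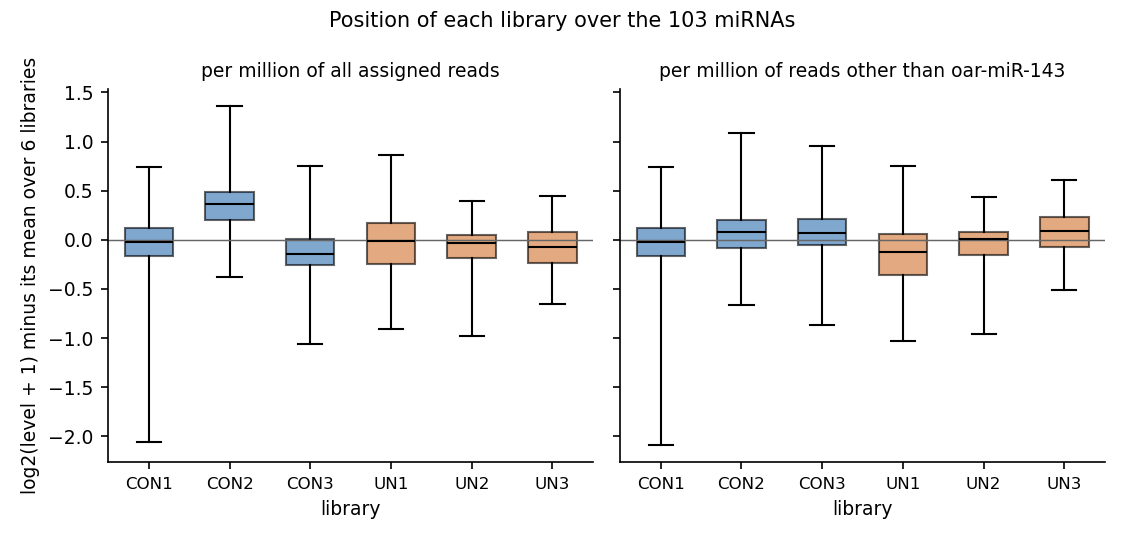
Deviation of log2(level + 1) of the 103 miRNAs from their own means over 6 libraries, by library, scaled over all assigned reads (left) and over reads other than oar-miR-143 (right). Boxes give the quartiles and median, and whiskers the range. The box of CON replicate 2 lies above 0 on the left, with a median of 0.36, and has a median of 0.08 on the right.

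The comparison of UN with CON asked whether underfeeding of the ewe went with other levels of these miRNAs in the fetal rumen. None of the 103 passed an adjusted p of 0.05 in limma's moderated test on log2(RPM + 1), where 567 miRNAs were tested and 0 passed (0.0%). The lowest adjusted p among the 103 was 0.839. edgeR's quasi-likelihood test and DESeq2 on the recovered reads also called 0 of the 103, with 1 (0.176%) and 4 (0.705%) of all 567 called. At an unadjusted p under 0.05, limma called 2 members (1.94%) against 5.11% of all tested. They were 0 higher in UN (0.705% of all tested) and 2 lower (4.41% of all tested), novel_miR_138 and novel_miR_609. edgeR gave 3 higher and 0 lower (3.35% and 1.94% of all tested), and DESeq2 5 higher and 1 lower (3.7% and 1.41%). limma on TMM-scaled RPM gave 3 higher and 0 lower (share of all tested not computed), so the direction of the split turned with the scaling within 1 tool. The shares of members were below or near the background in limma on RPM, edgeR and DESeq2. In bulk tissue, fewer cells of a type and less RNA per cell cannot be told apart for any of these values.

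The whole distribution lay slightly below 0 on the RPM scale. The median log2 fold change of the 103 was -0.11, against -0.12 over all 567, and it was below 0 in 75 members (72.8%, against 73.5% of all tested). TMM scaling moved the median of all tested miRNAs from -0.12 to 0.01 and that of the members to 0.05, with 39 members below 0, so no direction is given for the members as a set. The fitted changes ran from -0.74 for novel_miR_138 to 0.99 for novel_miR_866, and 69 members lay within 0.25 of 0. For 91 of the 103 the 95% interval stayed within a 2-fold change either way. The intervals of the other 12 reached beyond 2-fold, so changes of that size were not resolved there with 3 fetuses a group.

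**Figure D4:**
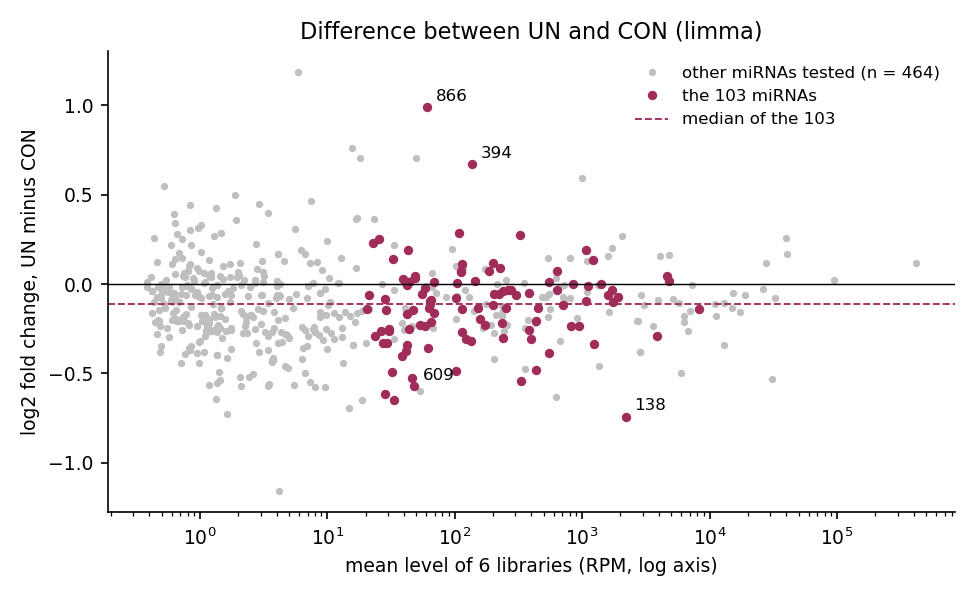
Fitted log2 fold change of UN minus CON against the mean level in RPM on a log axis, for the 103 miRNAs and the other 464 tested. The dashed line is the median of the 103 at -0.11, and the numbered points are novel_miR_138 at -0.74, novel_miR_609 at -0.57, novel_miR_394 at 0.67 and novel_miR_866 at 0.99.

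novel_miR_138 had the smallest p of the 103. It had 3386, 1562 and 3418 RPM in CON and 1668, 1116 and 2073 RPM in UN. CON replicate 2 lay within the range of UN, and the other CON libraries lay above all 3 UN libraries, so the groups overlapped. The fitted difference did not pass the adjusted threshold (log2 fold change -0.74, SE 0.31, 95% interval -1.40 to -0.08, unadjusted p = 0.0304, adjusted p = 0.839). Without CON replicate 2 it was -1.12 with an adjusted p of 0.0353 from limma, the only one of the 103 to pass in any of the alternatives, over which its adjusted p ran from 0.0353 to 0.996. Its first 18 bases are listed as 2 more entries with the same sequence but different counts.
novel_miR_1056: aCUGGACUuggagucaga
The first of these, novel_miR_1056, had 26.6, 13.0 and 31.0 RPM in CON and 18.0, 11.0 and 13.1 RPM in UN. It again had CON replicate 2 within the range of UN, and its level was 0.631% to 1.08% of that of novel_miR_138.

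novel_miR_609, whose complementary partner is shown above, had 58.1, 55.2 and 59.7 RPM in CON and 31.6, 36.1 and 49.5 RPM in UN. All 3 UN libraries lay below all 3 CON libraries. The fitted difference did not pass after adjustment in limma (log2 fold change -0.57, SE 0.25, 95% interval -1.11 to -0.04, unadjusted p = 0.0382, adjusted p = 0.839). Over the alternatives its adjusted p ran from 0.399 to 0.996 and its fold change from -0.75 to -0.40. Of these 2 miRNAs, only novel_miR_138 passed in limma on RPM the p and fold thresholds that the study's methods apply in DESeq2 (unadjusted p under 0.05 and a fold above 1.5 or below 0.67), where 1.41% of all tested miRNAs passed downward and 0.353% upward. In DESeq2 itself novel_miR_138 did not pass (unadjusted p = 0.0914), and neither did it in edgeR (0.0982), with TMM scaling (0.171) or without oar-miR-143 (0.141). DESeq2 and limma with TMM scaling instead each called 1 of the 103, novel_miR_394, upward. The share of all tested miRNAs past both thresholds was not computed there.

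The groups did not overlap for 6 of the 103, all with UN below CON (5.83%, against 12.3% of all 567), and for 0 with UN above CON (against 1.06%). Besides novel_miR_609 and novel_miR_984 these were novel_miR_728, novel_miR_254, novel_miR_593 and novel_miR_915. novel_miR_728 had 526, 502 and 479 RPM in CON and 279, 384 and 433 RPM in UN (log2 fold change -0.48, SE 0.23, 95% interval -0.97 to 0.01, unadjusted p = 0.0523, adjusted p = 0.839). The values of novel_miR_254 were 117, 149 and 96.9 RPM in CON and 81.7, 88.0 and 85.0 RPM in UN, and those of novel_miR_593 were 742, 574 and 561.3 RPM in CON and 403, 475 and 560.6 RPM in UN, less than 1 RPM apart at the nearest. For novel_miR_915 they were 30.9, 32.0 and 28.8 RPM in CON and 24.3, 25.5 and 22.6 RPM in UN. The lowest adjusted p of the 6 in limma was 0.839. Over the same libraries the sum of the epithelial oar-miR-200a, oar-miR-200b and oar-miR-200c ran from 14495 to 18317 RPM in CON and from 11663 to 14196 RPM in UN, without overlap on this scale or without oar-miR-143 but with overlap after TMM scaling. oar-miR-200b, which did not overlap on any of these scales, had a fitted log2 fold change of -0.50 with an adjusted p of 0.839. On the RPM scale oar-miR-200a (6382 to 8985 RPM in CON, 5177 to 7041 RPM in UN) and oar-miR-200c (1550 to 1935 RPM in CON, 1379 to 1632 RPM in UN) overlapped. The other 4 markers named above also overlapped between the groups. The part of epithelial RNA in the values of the 6 members was not tested. Without CON replicate 3 the count of members without overlap was 29 below and 0 above, and without CON replicate 2 it was 8 below and 16 above. With TMM scaling it was 2 below and 9 above. The share of all tested miRNAs was not computed for these settings, and leaving out a library makes separation easier. These counts are therefore not read as a result about the members.

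Of the remaining miRNAs with small p, novel_miR_1107 had 409.9, 318 and 429 RPM in CON and 228, 208 and 382 RPM in UN (log2 fold change -0.54, SE 0.26, 95% interval -1.11 to 0.02, unadjusted p = 0.0579, adjusted p = 0.839). UN replicate 3 lay within the CON range. Without CON replicate 2 the fitted log2 fold change of novel_miR_1107 was -0.67 (adjusted p = 0.358 in limma). novel_miR_984, given above, had a fitted log2 fold change of -0.52 with an SE of 0.26 and an adjusted p of 0.839 in limma. In the upward direction novel_miR_866 had the largest fitted change, and its interval crossed 0 (log2 fold change 0.99, SE 0.51, 95% interval -0.10 to 2.08, unadjusted p = 0.0710, adjusted p = 0.839). Its exact permutation p on the RPM values was 0.40. novel_miR_394 likewise overlapped between the groups (log2 fold change 0.67, SE 0.40, 95% interval -0.19 to 1.54, unadjusted p = 0.118, adjusted p = 0.854). Both changes moved with single libraries. That of novel_miR_866 was 1.58 without CON replicate 2 (adjusted p = 0.147 in limma) and 0.21 without CON replicate 1 (adjusted p = 0.995 in limma). That of novel_miR_394 was 1.21 without CON replicate 2 (adjusted p = 0.0962 in limma), 0.35 without CON replicate 1 and 0.41 without UN replicate 1.

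novel_miR_655 was fitted at 0.28 (SE 0.25, adjusted p = 0.854 in limma), and it was among the members with an unadjusted p under 0.05 in edgeR and DESeq2, as were novel_miR_524 and novel_miR_817. Without CON replicate 2 the fitted change of novel_miR_655 was 0.53 (adjusted p = 0.379 in limma). novel_miR_239 had 17.1, 30.4 and 23.1 RPM in CON and 33.0, 25.3 and 24.7 RPM in UN, and novel_miR_817 had 18.8, 26.3 and 18.0 RPM in CON and 25.5, 27.6 and 20.9 RPM in UN. Both overlapped between the groups. Their fitted changes were 0.25 and 0.23 on the log2 scale, with SEs of 0.27 and 0.26. Among the 12 most abundant members the fitted change ran from -0.74 to 0.14. novel_miR_395 lay at -0.14 with a 95% interval from -0.52 to 0.23, and novel_miR_578 at 0.02 with -0.40 to 0.43.

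**Figure D5:**
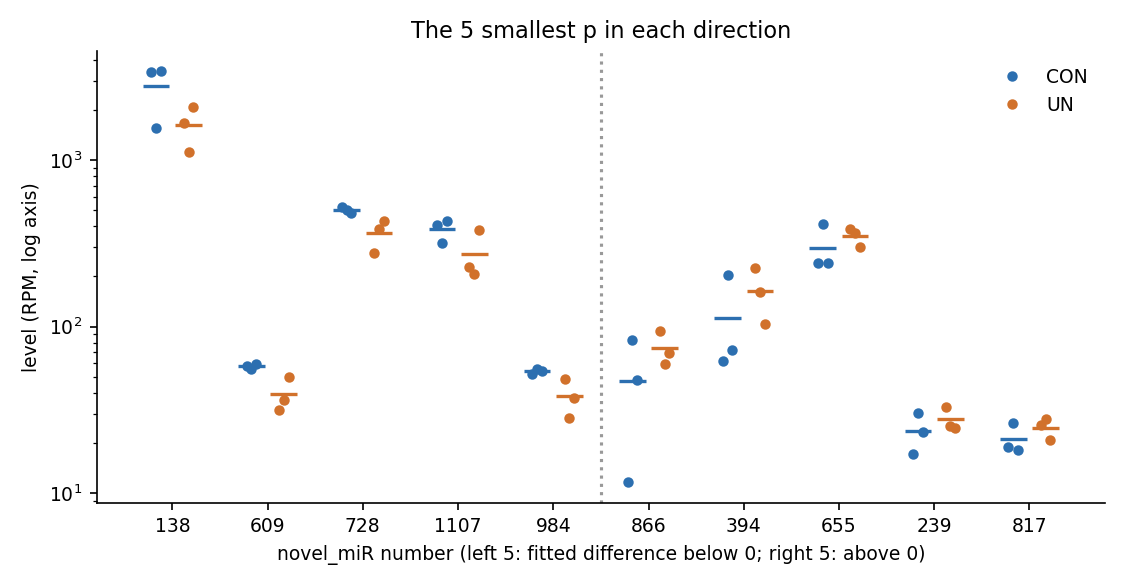
Level in RPM on a log axis in each CON and UN library for the 5 miRNAs with the smallest p on either side of 0, with bars at the group means. The points of novel_miR_609, novel_miR_728 and novel_miR_984 do not overlap between the groups, while CON replicate 2 of novel_miR_138 lies among its UN points.

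The 12 sheep-named entries that share a seed with a member were tested in the same fit. None had an unadjusted p under 0.05, 7 were fitted below 0, and their log2 fold changes ran from -0.24 for oar-miR-152 to 0.20 for oar-miR-23b. In the same fit novel_miR_712, with the seed of oar-miR-152, was at -0.10, and novel_miR_524, with that of oar-miR-23b, at 0.14.

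The 103 together held 5.48%, 6.38% and 4.95% of the assigned reads in CON and 5.23%, 5.07% and 5.09% in UN. CON replicate 2 was the highest and CON replicate 3 the lowest, so UN lay within the range of CON. The means were 5.61% ± 0.723 (SD, n = 3) in CON and 5.13% ± 0.0871 (SD, n = 3) in UN, a difference of -0.479 percentage points with a two-sided exact permutation p of 0.40. Without CON replicate 2 the difference was -0.0913 points. The 95% exact (Clopper-Pearson) intervals of the 6 shares were at most 0.0222 points wide, so the spread between fetuses sets the precision of these shares.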

How the data were processed

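Small-RNA libraries of 6 male fetal rumens (3 CON, 3 UN) were analysed, grouped by the sample labels; each label says rumen although the series title names other gut segments. The labels and the study's methods name different library kits. The deposited values are RPM, made by the authors after alignment with Bowtie2 (version not given in the sources used here) to sheep reference genome 3.0; the column is named TPM, but values sum to 1000000 per library and are not divided by length. The program that predicted new miRNAs is not given in the sources used here. Whole reads were recovered from the RPM steps, with 100% of values above 0 within 0.001 reads of a whole number.

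Mature sequences came from the study's supplementary list. Chromosomal positions and hairpins were not analysed here. Members, lists and tests were chosen with earlier results of these data known. UN was compared with CON by limma 3.58.1 (R 4.3.3) with a mean-variance trend on log2(RPM + 1), without covariates, over 567 miRNAs that passed edgeR's read filter (minimum count 10, minimum total 15), with Benjamini-Hochberg adjustment. Fold changes are on that scale, which understates low miRNAs. All 103 members passed the filter. edgeR 4.0.16 and DESeq2 1.42.0 on recovered reads were alternatives, as were other pseudocounts, no filter, TMM scaling, RPM without oar-miR-143, a replicate block, other level thresholds and leaving out each library. Data were simulated for UN against CON over 567 miRNAs, with 200 changed in each of 10 draws and no shift in library composition. limma recovered 23.1%, 61.6% and 95.0% of 1.5-, 2- and 4-fold changes, and called 1.09% of the unchanged miRNAs. So many changed miRNAs make the adjusted threshold easier to pass, so recovery may be lower in the real comparison. Exact permutation tests used scipy 1.17.1; with 3 against 3 the smallest p is 0.10.

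miRNAs named in the text were the 12 highest means, the 5 smallest p in each direction, members that share a seed, members complementary over 15 or more bases or close to a sheep-named entry, 3 on each side of the threshold and the 3 largest standard deviations; others were named after their values were seen.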

Additional observations from a re-analysis of the deposited data

How the results depend on the processing

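With 3 fetuses a group, no member passed an adjusted p of 0.05 under the replicate block, either pseudocount, no filter, TMM scaling, RPM without oar-miR-143, edgeR or DESeq2, and 0 to 1 passed when single libraries were left out, the 1 without CON replicate 2 being novel_miR_138. At an unadjusted p under 0.05, 2 members passed in limma (0 up, 2 down), 3 with TMM scaling (3 up, 0 down), 3 in edgeR (3 up, 0 down), 6 in DESeq2 (5 up, 1 down), 1 without oar-miR-143, 1 with a threshold of 50 RPM, and 1 to 10 over the leave-outs: 10 without CON replicate 2 (6 up, 4 down) and 10 without CON replicate 3 (1 up, 9 down). The study's fold thresholds called 1 member (0 up, 1 down), 1 with TMM scaling and 1 in DESeq2 (each 1 up, 0 down), 2 with a pseudocount of 0.1, 0 without oar-miR-143, 0 in edgeR, and 1 to 7 over the leave-outs. Non-overlapping groups numbered 6, against 11 with TMM scaling (9 above, 2 below), 11 without oar-miR-143 (5 above, 6 below), and 8 to 29 over the leave-outs. Shares of all tested miRNAs were computed only for the fits and thresholds given with them above. The other counts describe the members alone and are not set against a background. The cause of these shifts was not tested.

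Same-numbered fetuses are not paired by the labels, and the correlations of their deviations were -0.07, 0.07 and 0.19. The replicate block called 4 members at an unadjusted p under 0.05 (1 up, 3 down), 2 by the study's fold thresholds and 0 at an adjusted p of 0.05. For the replicate block no share of all tested miRNAs was computed. The median log2 fold change of the members was -0.11 with RPM, -0.06 without oar-miR-143, 0.05 with TMM scaling and in edgeR, 0.06 in DESeq2, and -0.22 to 0.02 over the leave-outs. The share of reads kept its direction under all alternatives run, from -0.807 to -0.0913 points. The fitted direction of the 10 miRNAs with the 5 smallest p on each side of 0 was the same in each alternative run. These 10 were picked by p and sign in the same libraries, so a constant sign says little. The change of novel_miR_239 was 0.05 without CON replicate 1.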
